A study of Arabidopsis thaliana with 36 samples.

Results

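The genes described here are the 7 Arabidopsis thaliana genes that encode the cryptochromes CRY1 (AT4G08920), CRY2 (AT1G04400) and CRY3 (AT5G24850), the phototropins PHOT1 (AT3G45780) and PHOT2 (AT5G58140), and the cryptochrome inhibitors BIC1 (AT3G52740) and BIC2 (AT3G44450). They were taken by gene identifier from a table of 32833 genes, and all 7 were among the 21562 genes that passed the filter on low counts. RNA was sequenced from whole 7-day-old seedlings of hy5 pif457, pif457, hy5 and the wild type (WT, Col-0). Each genotype was sampled before shade (0 h) and after 1 and 8 h of it, with 3 biological replicates, which gave 36 libraries in 12 groups of 3. The hy5 line is mutated in HY5, a bZIP factor of photomorphogenesis. The pif457 line is mutated in PIF4, PIF5 and PIF7, whose bHLH products drive growth under shade, hy5 pif457 carries both sets of mutations, and the labels name no alleles. All seedlings were grown at 22 °C in continuous white light with a red to far-red ratio of about 1.58, at 20 to 25 umol of photons per square metre and second, and the 0 h seedlings were harvested from that light. Shade was the same white light enriched with far-red to a ratio of about 0.02, so the photosynthetically active light was not reduced. There is no white-light group of 1 or 8 h, so shade and elapsed time cannot be told apart.

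Cryptochromes are flavin-binding receptors of blue light. CRY1 and CRY2 form active oligomers in blue light and act in the nucleus on growth and flowering, with CRY1 best known for the control of hypocotyl length and CRY2 for flowering. BIC1 and BIC2 bind the photoactivated cryptochromes and block their oligomerization, and transcription of both BIC genes is promoted by light, which closes a negative feedback loop. CRY3 belongs to the DASH group of cryptochromes, is located in chloroplasts and mitochondria and has photolyase activity on single-stranded DNA. Phototropins are blue light-activated protein kinases of the plasma membrane that direct phototropism, chloroplast movement and stomatal opening, with PHOT1 the more sensitive receptor and PHOT2 acting in stronger light.

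Library totals ran from 30846115 to 58025421 counts. HY5 transcript stood at 18.5% to 38.8% of the WT level in hy5 pif457 and at 23.3% to 35.2% in hy5 over the 3 times. PIF5 averaged 2.42 to 3.05 CPM in hy5 pif457, 1.57 to 3.57 CPM in pif457 and 30.6 to 94.1 CPM in WT, and PIF7 averaged 1.77 to 3.09, 1.42 to 1.88 and 8.24 to 19 CPM in the same genotypes. PIF4 transcript was not lost (30.9 to 50.9 CPM in hy5 pif457, 12.1 to 38.5 CPM in pif457 and 19.7 to 76.5 CPM in WT). In hy5 pif457 it was higher than in WT at 1 h (log2 fold change 0.65, edgeR adjusted p = 0.0471) and lower at 8 h (-0.59, adjusted p = 0.039). In pif457 it was lower than in WT at 8 h (-0.99, adjusted p = 0.00193). The share of counts from rRNA genes was 6.01% to 11.62% in 12 libraries and 0.47% to 2.63% in the other 24. The 12 were all 9 libraries of hy5 pif457 and all 3 of pif457 at 8 h, so for these groups the rRNA share and the genotype or time cannot be told apart. All 22 root markers were detected and their summed level differed between groups and replicates. It was 129 to 470 CPM in hy5 pif457, 66.1 to 231 CPM in pif457 at 0 and 1 h and 109 to 786 CPM in pif457 at 8 h. In hy5 it was 135 to 212, 361 to 484 and 235 to 287 CPM at 0, 1 and 8 h, and in WT 117 to 192, 142 to 325 and 51.1 to 160 CPM. The 4 green tissue markers summed to 35000 to 81200 CPM. In such bulk samples fewer cells of a type and less RNA per cell cannot be told apart.

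Levels are given as CPM, counts relative to the library total after TMM scaling, and means carry the SD of 3 libraries. A difference is a log2 fold change with its standard error from the edgeR quasi-likelihood F-test on all 36 libraries, with p values adjusted by the Benjamini-Hochberg method over all 21562 genes tested, and a gene is called at an adjusted p under 0.05. Each 0 h group serves both shade times and each WT group serves 3 mutants, so those comparisons share samples. Where leaving out 1 library of the compared groups ended a call, those libraries are named, with the range of the log2 fold change over all such fits and the highest adjusted p. A separate fit uses only the libraries of the compared groups, and its adjusted p is given where it ended or added a call.

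By the TAIR10.1 annotation CRY1 lies on chromosome 4, CRY2 on chromosome 1, CRY3 and PHOT2 on chromosome 5, and PHOT1, BIC1 and BIC2 on chromosome 3. Compared per length of transcript, the phototropins and the pair CRY1 and CRY2 stood well above CRY3 and the BIC genes. In WT at 0 h PHOT2 had 68.8 ± 5.33 CPM per kb of its median transcript, PHOT1 45.3 ± 8.54, CRY1 43.5 ± 1.83, CRY2 39.7 ± 2.84, BIC2 16.7 ± 3.34, CRY3 12.4 ± 1.28 and BIC1 10.8 ± 1.07 CPM per kb. PHOT1, CRY1 and CRY2 lay within their spread of each other, and so did BIC2 and CRY3 as well as CRY3 and BIC1. PHOT2 has transcripts of 2827 to 6518 bases, so its level per kb depends on which are present, and it overlaps 1 gene on the opposite strand (AT5G58150). No 50-base stretch of the 7 genes was shared with another gene. At 8 h in WT the order had PHOT1 first at 139 ± 18.5 CPM per kb and PHOT2 second at 92.8 ± 12.4, followed by CRY1 at 59.6 ± 1.93, CRY2 at 57.6 ± 2.37, CRY3 at 16.3 ± 1.1, BIC2 at 11.3 ± 0.896 and BIC1 at 9.14 ± 1.28 CPM per kb. CRY1 and CRY2 again lay within their spread of each other, as did BIC2 and BIC1.

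**Figure D1:**
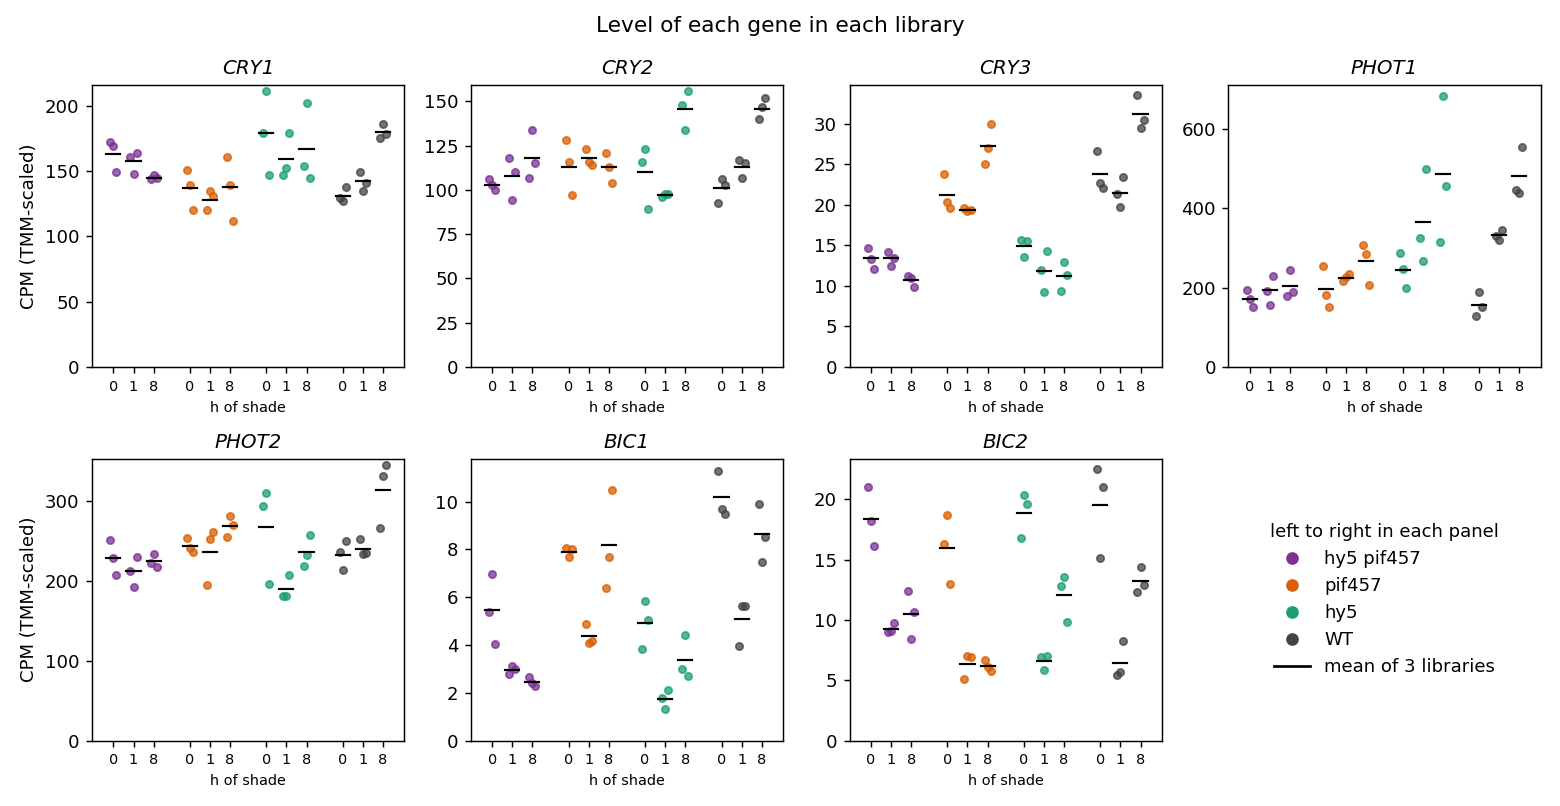
CPM of the 7 genes in each of the 36 libraries (points) with the mean of each group of 3 (lines), by genotype and h of shade. BIC1 has its lowest mean in hy5 at 1 h (1.75 CPM) and its highest in WT at 0 h (10.2 CPM), and PHOT1 has its highest means in hy5 at 8 h (485 CPM) and WT at 8 h (480 CPM).

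The genes differed in how far they moved over the 12 groups. The ratio of the highest to the lowest group mean was 1.41 for CRY1, 1.51 for CRY2, 1.65 for PHOT2, 2.92 for CRY3, 3.11 for PHOT1, 3.16 for BIC2 and 5.83 for BIC1. BIC1 was also the least deeply counted, with 53 to 445 counts in a library, against 4888 to 23537 counts for PHOT1. CRY1, CRY2, CRY3 and PHOT2 had their highest mean in WT at 8 h, and both BIC genes had theirs in WT at 0 h.

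BIC2 was called lower than at 0 h in all 8 shade comparisons, and the calls of receptors as higher than at 0 h were in hy5 and WT. CRY3 in pif457 at 8 h was close to the threshold (0.36 ± 0.12, adjusted p = 0.0554). hy5 pif457 had 1 call at 1 h (BIC2) and 2 at 8 h (BIC1 and BIC2), all lower. Of all genes tested 0.181% were called there at 1 h (0.0557% higher and 0.125% lower) and 10.9% at 8 h (4.73% higher and 6.2% lower). pif457 had 1 call at 1 h and 1 at 8 h, both BIC2 and both lower, where 0.227% of all genes were called at 1 h (0.0278% higher and 0.199% lower) and 9.94% at 8 h (5.36% higher and 4.58% lower). hy5 had 3 calls at 1 h, all lower, where 6.77% of all genes were called (3.62% higher and 3.15% lower), and 4 at 8 h, 2 in each direction, where 9.27% were called (4.52% higher and 4.75% lower). In WT at 1 h 3 of the 7 genes were called, PHOT1 higher and BIC1 and BIC2 lower, while 5.2% of all genes were called, 3.56% higher and 1.64% lower. At 8 h in WT 6 of 7 were called, with CRY1, CRY2, CRY3, PHOT1 and PHOT2 higher and BIC2 lower, against 19.2% of all genes, 12% higher and 7.11% lower. The median log2 fold change of the 7 genes was 0.04 at 1 h and 0.43 at 8 h in WT, where the median of all genes was 0.02 and -0.03.

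**Figure D2:**
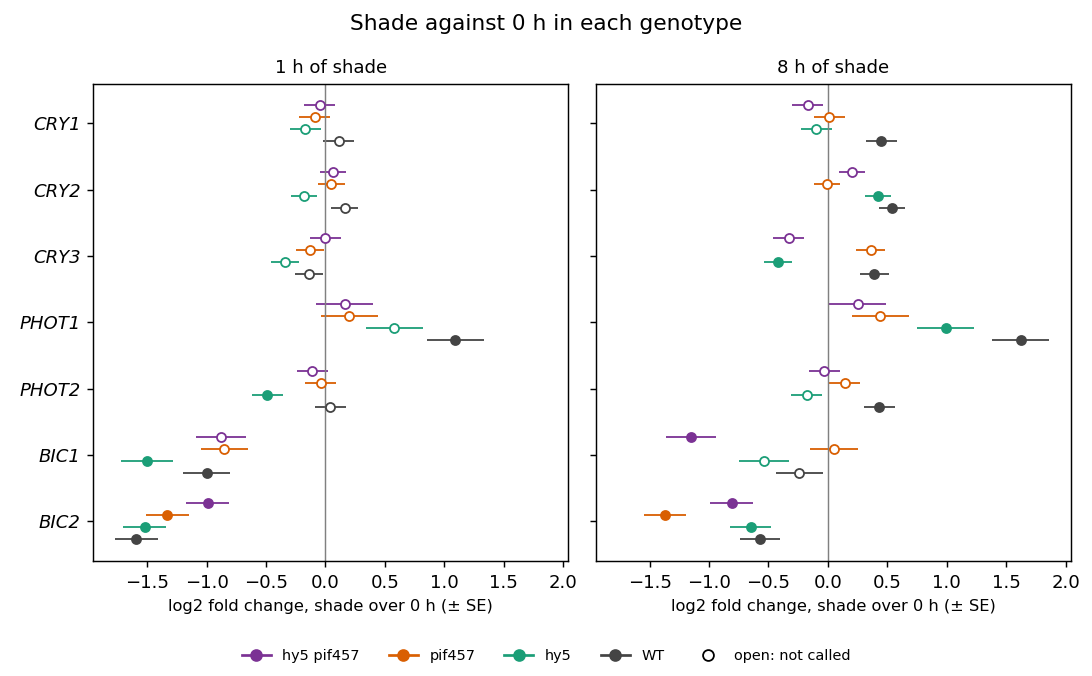
Log2 fold change of each gene at 1 h (left) and 8 h (right) of shade over 0 h in the 4 genotypes, with standard errors and with filled points where the gene was called. BIC2 lies below 0 in every genotype at both times, from -1.59 in WT at 1 h to -0.57 in WT at 8 h, and the PHOT1 points of hy5 pif457 and pif457 lie nearer to 0 than those of hy5 and WT.

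BIC2, an inhibitor of CRY1 and CRY2, fell in shade in every genotype. In hy5 pif457 BIC2 had 21, 18.2 and 16.1 CPM at 0 h, 8.99, 9.11 and 9.74 CPM at 1 h, and 12.4, 8.41 and 10.7 CPM at 8 h. All shade libraries lay below those at 0 h, and the 1 h and 8 h libraries overlapped. It fell by 0.99 ± 0.18 at 1 h (adjusted p = 0.00724) and by 0.81 ± 0.18 at 8 h (adjusted p = 0.00483). The call at 1 h ended without hy5 pif457 0 h replicate 1 or any 1 of the 3 libraries at 1 h (-1.08 to -0.88, adjusted p up to 0.108). At 8 h hy5 pif457 averaged 10.5 ± 2 CPM and pif457 6.17 ± 0.484 CPM, with no overlap and a difference of 0.76 ± 0.18 (adjusted p = 0.0037), which ended in a separate fit (adjusted p = 0.0546).

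BIC2 stayed low at 8 h in pif457. Its values there were 16.3, 18.7 and 13 CPM at 0 h, 5.1, 7.04 and 6.96 CPM at 1 h, and 6.7, 6.09 and 5.74 CPM at 8 h, so that the 1 h and 8 h libraries overlapped and both lay below those at 0 h. It fell by 1.33 ± 0.18 at 1 h (adjusted p = 0.000427) and by 1.37 ± 0.18 at 8 h (adjusted p = 2.16e-05), with no detectable difference of 8 h from 1 h (-0.05, 95% interval -0.41 to 0.32). In separate fits the adjusted p was 0.236 at 1 h (0.0555 with the replicate number as a block) and 0.0715 at 8 h. At 8 h pif457 had 6.17 ± 0.484 CPM and WT 13.2 ± 1.04 CPM, with no overlap and a difference of -1.09 ± 0.18 (adjusted p = 0.000151). The difference between the 8 h responses of pif457 and WT was -0.81 ± 0.25 and was not called (adjusted p = 0.0707), whereas DESeq2 gave the same difference an adjusted p of 0.0422.

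In hy5 BIC2 had 16.8, 20.4 and 19.6 CPM at 0 h, 6.96, 5.83 and 7.02 CPM at 1 h, and 12.8, 13.6 and 9.83 CPM at 8 h. The times did not overlap, with 1 h lowest. It fell by 1.52 ± 0.18 on the log2 scale at 1 h (adjusted p = 7.98e-07) and by 0.65 ± 0.17 at 8 h (adjusted p = 0.0159). That call ended without hy5 0 h replicate 2 or 3 or hy5 8 h replicate 3 (-0.76 to -0.52, adjusted p up to 0.0966) and in a separate fit (adjusted p = 0.0698). The 8 h level stood above 1 h by 0.87 ± 0.18 (adjusted p = 0.00207). hy5 did not differ detectably from WT at any time, with differences of -0.04, 0.03 and -0.13 at 0, 1 and 8 h and 95% intervals that reached from -0.49 to 0.39.

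In WT BIC2 had 22.5, 15.1 and 21 CPM at 0 h, 5.44, 5.66 and 8.3 CPM at 1 h, and 12.3, 14.4 and 12.9 CPM at 8 h. The libraries of the 3 times did not overlap, with 1 h lowest and 8 h between the other times. The log2 fold change against 0 h was -1.59 ± 0.18 at 1 h (edgeR adjusted p = 3.8e-07) and -0.57 ± 0.17 at 8 h (adjusted p = 0.022), and 8 h stood above 1 h by 1.02 ± 0.18 (adjusted p = 0.000285). The call at 8 h against 0 h ended without WT 0 h replicate 1 or 3 or WT 8 h replicate 1 or 3 (-0.72 to -0.45, adjusted p up to 0.135).

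BIC1, the other inhibitor, was lower in hy5 pif457 and in hy5 than in WT at all 3 times. Against 0 h it was called lower at 1 h of shade in hy5 and WT and at 8 h in hy5 pif457. At 1 h it also lay below 0 h without overlap in hy5 pif457 (-0.88) and pif457 (-0.85), which DESeq2 called and edgeR did not. In hy5 pif457 it had 5.39, 6.97 and 4.05 CPM at 0 h, 2.79, 3.12 and 3.01 CPM at 1 h, and 2.67, 2.42 and 2.3 CPM at 8 h. The 8 h libraries were the lowest of the 3 times and lay below every 8 h library of pif457, hy5 and WT. The log2 fold change against 0 h was -0.88 ± 0.21 at 1 h, not called (adjusted p = 0.0972; 0.0198 with DESeq2), and -1.15 ± 0.21 at 8 h (adjusted p = 0.0016). At 8 h hy5 pif457 averaged 2.46 ± 0.189 CPM, pif457 8.19 ± 2.11 CPM, hy5 3.37 ± 0.923 CPM and WT 8.64 ± 1.21 CPM. The difference was -1.81 ± 0.21 from WT (adjusted p = 1.12e-06), -1.73 ± 0.21 from pif457 (adjusted p = 7.62e-06) and -0.45 ± 0.21 from hy5, which was not called (adjusted p = 0.122).

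At the earlier times BIC1 in hy5 pif457 was lower than in WT, at -0.9 ± 0.2 at 0 h (adjusted p = 0.00699) and -0.77 ± 0.21 at 1 h (adjusted p = 0.0197). The call at 0 h ended without hy5 pif457 0 h replicate 3 (adjusted p = 0.0523, -1.15 to -0.76 over all such fits), and that at 1 h without WT 1 h replicate 2 or 3 or hy5 pif457 1 h replicate 1 (-0.93 to -0.71, adjusted p up to 0.07). At 1 h hy5 pif457, with 2.97 ± 0.169 CPM, stood above hy5, with 1.75 ± 0.388 CPM, by 0.77 ± 0.22 (adjusted p = 0.0432). That call ended without hy5 1 h replicate 1 or 2 or any 1 hy5 pif457 1 h library (0.61 to 0.94, adjusted p up to 0.213), with the replicate number as a block (adjusted p = 0.0565) and in a separate fit (adjusted p = 0.0643). The difference between the 8 h responses of hy5 pif457 and WT was -0.91 ± 0.29 (adjusted p = 0.0379). It ended without any 1 WT 0 h library, WT 8 h replicate 1 or 3, hy5 pif457 0 h replicate 1 or 2, or any 1 hy5 pif457 8 h library (-1.07 to -0.68, adjusted p up to 0.132), and also with no filter on low counts (adjusted p = 0.0508) and without rRNA and organelle genes (adjusted p = 0.0535).

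In pif457 BIC1 was at 8.04, 7.7 and 8 CPM at 0 h, 4.88, 4.09 and 4.15 CPM at 1 h, and 6.39, 7.69 and 10.5 CPM at 8 h, and the 1 h libraries were below the other times. The value at 1 h against 0 h, -0.85 ± 0.2, was not called (adjusted p = 0.0929), although DESeq2 gave an adjusted p of 0.0103. The 8 h level stood above that of 1 h by 0.91 ± 0.2 (adjusted p = 0.0134). This call ended without pif457 1 h replicate 2 or 3 or pif457 8 h replicate 3 (0.69 to 0.99, adjusted p up to 0.191) and in a separate fit (adjusted p = 0.328). Differences from WT were -0.36, -0.21 and -0.08 at 0, 1 and 8 h, none called, with 95% intervals that reached from -0.77 to 0.34.

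In hy5 BIC1 had 3.85, 5.85 and 5.03 CPM at 0 h, 1.8, 1.34 and 2.11 CPM at 1 h, and 3, 4.43 and 2.7 CPM at 8 h. Every hy5 library lay below every WT library of the same time, and the 1 h libraries were the lowest in hy5. At 8 h the log2 fold change against 0 h was -0.54 and was not called. With the root marker score as a covariate it was called (-0.65, adjusted p = 0.0366). At 1 h BIC1 fell by 1.5 ± 0.22 (adjusted p = 2.31e-05), and 8 h stood above 1 h by 0.95 ± 0.22 (adjusted p = 0.006). That call ended without hy5 1 h replicate 2 (0.73 to 1.14 over all such fits, adjusted p = 0.0568 in that one) and in a separate fit (adjusted p = 0.0901). Relative to WT, hy5 stood at -1.05 ± 0.2 at 0 h (adjusted p = 0.00171), -1.54 ± 0.22 at 1 h (adjusted p = 5.31e-05) and -1.36 ± 0.21 at 8 h (adjusted p = 0.000154), and each of these calls held with any 1 library left out. At 8 h the call ended in a separate fit (adjusted p = 0.051).

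In WT BIC1 had 11.3, 9.71 and 9.48 CPM at 0 h, 3.94, 5.63 and 5.63 CPM at 1 h, and 9.89, 7.49 and 8.53 CPM at 8 h. The 1 h libraries lay below the other times, and the 0 h and 8 h libraries overlapped. The log2 fold change at 1 h was -1 ± 0.2 (adjusted p = 0.00249), and 8 h stood above 1 h by 0.77 ± 0.2 (adjusted p = 0.017). That call ended without WT 1 h replicate 1 or WT 8 h replicate 1 (0.65 to 0.9, adjusted p up to 0.0635) and in a separate fit (adjusted p = 0.0579). At 8 h against 0 h BIC1 was not called (-0.24, 95% interval -0.65 to 0.18).

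Taken as a pair, the BIC transcripts were less abundant relative to CRY1 and CRY2 in every other group than in WT at 0 h. The log2 ratio of summed BIC1 and BIC2 counts to summed CRY1 and CRY2 counts averaged -3.49 ± 0.12, -4.43 ± 0.13 and -4.36 ± 0.32 in hy5 pif457 at 0, 1 and 8 h. It was -3.39 ± 0.12, -4.52 ± 0.08 and -4.12 ± 0.35 in pif457 and -3.59 ± 0.3, -4.94 ± 0.16 and -4.36 ± 0.2 in hy5. The WT libraries had -2.71, -3.24 and -2.98 at 0 h, -4.83, -4.42 and -4.2 at 1 h, and -3.83, -3.93 and -3.95 at 8 h, without overlap between times. In linear terms there were 30.8 cryptochrome counts per BIC count in hy5 at 1 h and 7.88 in WT at 0 h. Per length of transcript these were 12.1 and 3.04. The balance within the pair differed too. The log2 ratio of BIC1 to BIC2 counts at 0 h was -1.96 ± 0.16 in hy5 and -0.92 ± 0.26 in WT. At 8 h it was -2.08 ± 0.24 in hy5 pif457, 0.38 ± 0.47 in pif457 and -0.62 ± 0.31 in WT. These ratios are descriptions of transcript counts without a test.

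**Figure D3:**
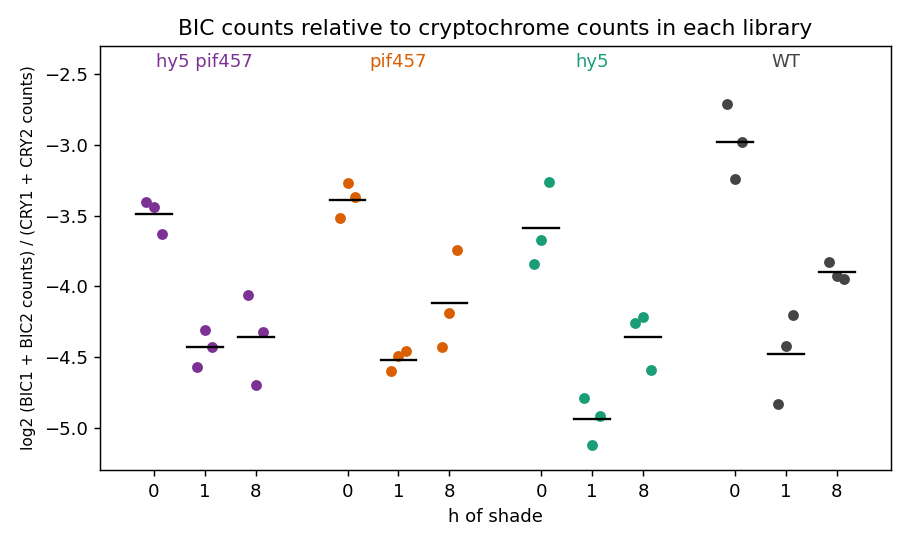
Log2 ratio of summed BIC1 and BIC2 counts to summed CRY1 and CRY2 counts in each library (points) with group means (lines), by genotype and h of shade. The lowest mean is that of hy5 at 1 h (-4.94) and the highest that of WT at 0 h (-2.98), and the 1 h and 8 h libraries of hy5 pif457 overlap.

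PHOT1, the phototropin of high sensitivity, was not called for shade in hy5 pif457 or pif457 and rose in hy5 and in WT. In hy5 pif457 it had 195, 172 and 150 CPM at 0 h, 192, 157 and 228 CPM at 1 h, and 178, 244 and 189 CPM at 8 h. In pif457 it had 255, 180 and 151 CPM at 0 h, 216, 227 and 233 CPM at 1 h, and 307, 284 and 206 CPM at 8 h. The times overlapped in both genotypes, and the fold changes against 0 h lay between 0.16 and 0.44 with 95% intervals that reached from -0.33 to 0.93. At 8 h PHOT1 averaged 204 ± 35.4 CPM in hy5 pif457, 266 ± 53.1 CPM in pif457, 485 ± 186 CPM in hy5 and 480 ± 63.8 CPM in WT.

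In hy5 the replicates were more spread. PHOT1 had 286, 246 and 199 CPM at 0 h, 326, 267 and 498 CPM at 1 h, and 315 and 683 CPM at 8 h in replicates 1 and 2, with replicate 3 between them. The 1 h libraries overlapped with those at 0 and 8 h, and the 8 h libraries lay above those at 0 h. It rose by 0.99 ± 0.24 at 8 h (adjusted p = 0.00781). This call ended without hy5 0 h replicate 3 or hy5 8 h replicate 2 (0.65 to 1.23, adjusted p up to 0.115) and in a separate fit (adjusted p = 0.144). At 1 h the value was 0.58 ± 0.24 (adjusted p = 0.149). hy5 was not called against WT, with 0.64 ± 0.24 at 0 h (adjusted p = 0.0871), 0.13 ± 0.24 at 1 h and 0.02 ± 0.24 at 8 h.

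In WT PHOT1 had 129, 188 and 152 CPM at 0 h, 331, 320 and 346 CPM at 1 h, and 447, 438 and 553 CPM at 8 h, so that the times did not overlap and 8 h was highest. The log2 fold change against 0 h was 1.09 ± 0.24 at 1 h (adjusted p = 0.00583) and 1.62 ± 0.24 at 8 h (adjusted p = 2.47e-05). The call at 1 h ended without WT 0 h replicate 1 (0.97 to 1.24 over all such fits, adjusted p = 0.06 in that one). The step between 1 and 8 h, 0.53 ± 0.24, was not called (adjusted p = 0.175).

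Set against WT at 8 h, PHOT1 was lower in hy5 pif457 (-1.23 ± 0.24, adjusted p = 0.000827) and in pif457 (-0.85 ± 0.24, adjusted p = 0.0217), without overlap in either case. The pif457 call ended without WT 8 h replicate 2 or 3 or pif457 8 h replicate 3 (-1.04 to -0.7, adjusted p up to 0.168) and with the root marker score as a covariate (-0.78, adjusted p = 0.182) or in a separate fit (adjusted p = 0.127). hy5 pif457 was also lower than hy5 at 8 h (-1.25 ± 0.24, adjusted p = 0.000841), a call that held with any 1 library left out. At 1 h hy5 pif457 had 193 ± 35.4 CPM, hy5 364 ± 120 CPM and WT 332 ± 13.3 CPM. The difference was -0.92 ± 0.24 from hy5 (adjusted p = 0.0238) and -0.79 ± 0.24 from WT (adjusted p = 0.0414; 0.0543 with the replicate number as a block). The first ended without hy5 1 h replicate 3 or hy5 pif457 1 h replicate 1 or 2 (-1.1 to -0.6, adjusted p up to 0.374) and in a separate fit (adjusted p = 0.0701). The other ended without any 1 WT 1 h library or hy5 pif457 1 h replicate 1 or 2 (-0.94 to -0.68, adjusted p up to 0.217). At 1 h pif457 lay below WT without overlap (-0.56) and was not called, while a separate fit called it (-0.55, adjusted p = 0.0142).

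The response itself was smaller in hy5 pif457 than in WT at 8 h, with a difference of -1.37 ± 0.34 (adjusted p = 0.00962). That call ended without WT 8 h replicate 3 (-1.53 to -1.22 over all such fits, adjusted p = 0.052 in that one). For pif457 the same difference was -1.18 ± 0.34 and was not called with edgeR (adjusted p = 0.0551), while DESeq2 gave an adjusted p of 0.0215. For hy5 it was -0.63 ± 0.34 (adjusted p = 0.376). At 1 h the differences from the WT response were -0.92 ± 0.34 in hy5 pif457, -0.88 ± 0.34 in pif457 and -0.51 ± 0.34 in hy5, none called (adjusted p from 0.362 to 0.645).

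PHOT2, the phototropin of stronger light, moved less. In hy5 PHOT2 had 294, 310 and 196 CPM at 0 h, 181, 181 and 208 CPM at 1 h, and 219, 232 and 257 CPM at 8 h. The 1 h libraries overlapped with the lowest one at 0 h. The fold change at 1 h was -0.49 ± 0.13 (adjusted p = 0.0196). It ended in a separate fit (adjusted p = 0.17, and 0.185 with the replicate number as a block), with the root marker score as a covariate (-0.42, adjusted p = 0.101), without the 12 libraries rich in rRNA (adjusted p = 0.0544), and without hy5 0 h replicate 1 or 2 or hy5 1 h replicate 1 or 2 (-0.71 to -0.4, adjusted p up to 0.131). The summed root markers were 361 to 484 CPM in hy5 at 1 h and 135 to 212 CPM at 0 h.

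In WT PHOT2 had 236, 214 and 250 CPM at 0 h, 252, 234 and 235 CPM at 1 h, and 266, 332 and 345 CPM at 8 h, where every library lay above those at 0 and 1 h. The log2 fold change at 8 h was 0.43 ± 0.13 (adjusted p = 0.0203). This call ended without WT 0 h replicate 1 or 2 or WT 8 h replicate 2 or 3 (0.36 to 0.54, adjusted p up to 0.136), with the root marker score as a covariate (0.36, adjusted p = 0.06), without the 12 libraries rich in rRNA (0.41, adjusted p = 0.0572) and in a separate fit (adjusted p = 0.054).

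At 8 h PHOT2 averaged 225 ± 8.24 CPM in hy5 pif457, 269 ± 12.7 CPM in pif457, 236 ± 19.8 CPM in hy5 and 314 ± 42.2 CPM in WT. hy5 pif457 lay below WT without overlap (-0.48 ± 0.13, adjusted p = 0.0116). That call ended without WT 8 h replicate 3 or hy5 pif457 8 h replicate 3 (-0.59 to -0.42, adjusted p up to 0.0899). hy5 also lay below WT without overlap but was not called with edgeR (-0.41 ± 0.13, adjusted p = 0.0827; 0.0422 with DESeq2). The log2 ratio of PHOT1 to PHOT2 counts in hy5 pif457 was -0.42 ± 0.05 at 0 h, -0.15 ± 0.14 at 1 h and -0.15 ± 0.2 at 8 h, and in WT it was -0.59 ± 0.36, 0.47 ± 0.08 and 0.61 ± 0.19.

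Among the cryptochromes, CRY3 had the largest span over the 12 group means, and it was lower than in WT at all 3 times in both genotypes that carry the hy5 mutation. In hy5 pif457 it had 14.7, 13.3 and 12.1 CPM at 0 h, 14.2, 12.4 and 13.5 CPM at 1 h, and 11.2, 11 and 9.86 CPM at 8 h. In hy5 it had 15.7, 13.6 and 15.5 CPM at 0 h, 12, 9.27 and 14.3 CPM at 1 h, and 9.36, 12.9 and 11.3 CPM at 8 h. In WT it had 26.6, 22.7 and 22.1 CPM at 0 h, 21.4, 19.7 and 23.4 CPM at 1 h, and 33.6, 29.5 and 30.5 CPM at 8 h. No library of hy5 or hy5 pif457 reached the WT libraries of its time.

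Relative to WT, CRY3 in hy5 was at -0.67 ± 0.12 at 0 h (adjusted p = 0.00105), -0.86 ± 0.12 at 1 h (adjusted p = 7.85e-05) and -1.48 ± 0.13 at 8 h (adjusted p = 4.8e-09). The values in hy5 pif457 were -0.83 ± 0.12 (adjusted p = 0.000133), -0.69 ± 0.12 (adjusted p = 0.000462) and -1.55 ± 0.13 (adjusted p = 2.8e-09). All 6 calls held with any 1 library left out, and that of hy5 at 1 h ended in a separate fit (adjusted p = 0.0614). pif457, with 21.2 ± 2.25, 19.4 ± 0.164 and 27.3 ± 2.52 CPM at 0, 1 and 8 h, was not called against WT (-0.16, -0.15 and -0.19). hy5 pif457 was lower than pif457 at 0 h (-0.67 ± 0.12, adjusted p = 0.00163), at 1 h (-0.54 ± 0.12, adjusted p = 0.00882) and at 8 h (-1.36 ± 0.13, adjusted p = 1.37e-07), and these calls too held with any 1 library left out. Against hy5 it was not called at any time (-0.16, 0.18 and -0.07).

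The 8 h response of CRY3 ran in opposite directions in hy5 and WT. In hy5 it fell by 0.42 ± 0.12 (adjusted p = 0.0315), and in WT it rose by 0.39 ± 0.12 (adjusted p = 0.0243), both without overlap with 0 h. Leaving out hy5 0 h replicate 1 or 3 or hy5 8 h replicate 1 or 3 ended the hy5 call (-0.55 to -0.31, adjusted p up to 0.174). Leaving out WT 0 h replicate 2 or 3 or WT 8 h replicate 1 or 3 ended the WT call (0.34 to 0.48, adjusted p up to 0.114). Without the 12 libraries rich in rRNA the adjusted p was 0.0564 in hy5 and 0.056 in WT, and in a separate fit it was 0.201 in hy5. The difference of the responses was -0.81 ± 0.17 (adjusted p = 0.0172). It ended without WT 0 h replicate 3, hy5 0 h replicate 1 or hy5 8 h replicate 1 (-0.95 to -0.7, adjusted p up to 0.0753), without the 12 libraries (adjusted p = 0.0571) and in a separate fit (adjusted p = 0.114).

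For CRY3 in hy5 pif457 the 8 h value was -0.33 ± 0.13 against 0 h, not called (adjusted p = 0.0859), and its response differed from that of WT by -0.72 ± 0.18 (adjusted p = 0.0089), which held with any 1 library left out. In pif457 the 8 h value was 0.36 ± 0.12 (adjusted p = 0.0554), and its difference from the WT response was -0.03 with a 95% interval of -0.38 to 0.33. Between 1 and 8 h CRY3 rose in pif457 (0.49 ± 0.12, adjusted p = 0.0271) and in WT (0.54 ± 0.12, adjusted p = 0.00511). In hy5 pif457 the value from 1 to 8 h was -0.33 and not called, while a separate fit called it (-0.29, adjusted p = 0.0362). The pif457 call ended without any 1 library at 1 h or pif457 8 h replicate 2 or 3 (0.42 to 0.5, adjusted p up to 0.22), with no filter on low counts (adjusted p = 0.0647), in a separate fit (adjusted p = 0.201) and with the root marker score as a covariate (adjusted p = 0.0638).

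CRY1, the main cryptochrome of seedling growth, differed little between groups. In the mutants its 8 h values against 0 h were -0.17 ± 0.13 in hy5 pif457, 0.01 ± 0.13 in pif457 and -0.1 ± 0.13 in hy5, none called. In WT it had 129, 127 and 138 CPM at 0 h, 149, 135 and 141 CPM at 1 h, and 175, 186 and 178 CPM at 8 h, where the libraries lay above all others of WT. In WT it rose by 0.45 ± 0.13 at 8 h (adjusted p = 0.0119), a call that ended without WT 0 h replicate 1 or WT 8 h replicate 2 or 3 (0.43 to 0.49, adjusted p up to 0.0613).

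Before shade CRY1 was higher in hy5, with 179, 211 and 147 CPM, than in WT, with 129, 127 and 138 CPM (0.45 ± 0.13, adjusted p = 0.0253), without overlap. This call ended without WT 0 h replicate 1 or 3 or hy5 0 h replicate 1 or 2 (0.29 to 0.56, adjusted p up to 0.209), with no filter on low counts (adjusted p = 0.0626), in a separate fit (adjusted p = 0.192) and without the 12 libraries rich in rRNA (adjusted p = 0.0614). At 8 h pif457, with 161, 139 and 112 CPM, lay below WT (-0.39 ± 0.13, adjusted p = 0.045). Leaving out any 1 WT 8 h library or pif457 8 h replicate 2 or 3 ended it (-0.59 to -0.26, adjusted p up to 0.315). It also ended with RLE scaling (adjusted p = 0.0521), leaving out rRNA and organelle genes (adjusted p = 0.0578), a separate fit (adjusted p = 0.323) and the root marker score as a covariate (-0.22, adjusted p = 0.611). pif457 8 h replicate 3, the lowest of the CRY1 values, also had the highest summed root markers at 786 CPM. hy5 pif457 at 8 h, with 144, 147 and 145 CPM, lay below WT without overlap. This difference of -0.31 was not called, while a separate fit called it (-0.32, adjusted p = 0.011). The 8 h response of CRY1 was lower in hy5 pif457 than in WT, with a difference of -0.62 ± 0.18 (adjusted p = 0.0223). It ended with no filter on low counts (adjusted p = 0.0508) and without WT 0 h replicate 1, WT 8 h replicate 2 or 3, hy5 pif457 0 h replicate 1 or 2, or any 1 hy5 pif457 8 h library (-0.66 to -0.56, adjusted p up to 0.0957).

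CRY2, the cryptochrome best known in flowering, rose at 8 h in hy5 and WT. The hy5 libraries had 116, 123 and 89.2 CPM at 0 h, 96, 97.7 and 97.5 CPM at 1 h, and 148, 134 and 156 CPM at 8 h. The WT libraries had 92.6, 106 and 103 CPM at 0 h, 117, 107 and 115 CPM at 1 h, and 140, 147 and 152 CPM at 8 h. In both genotypes every 8 h library lay above all earlier ones. Against 0 h it rose by 0.42 ± 0.11 in hy5 (adjusted p = 0.0124) and by 0.54 ± 0.11 in WT (adjusted p = 0.000737), which held with any 1 library left out. The hy5 call ended without hy5 0 h replicate 3 or hy5 8 h replicate 1 or 3 (0.28 to 0.51, adjusted p up to 0.151) and in a separate fit (adjusted p = 0.241). Against 1 h it rose by 0.59 ± 0.11 in hy5 (adjusted p = 0.000585) and by 0.38 ± 0.11 in WT (adjusted p = 0.0268). The WT call ended without WT 1 h replicate 2 or 3 or WT 8 h replicate 2 or 3 (0.36 to 0.44, adjusted p up to 0.11) and with the root marker score as a covariate (0.3, adjusted p = 0.134).

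At 8 h CRY2 had 107, 134 and 115 CPM in hy5 pif457 and 121, 113 and 104 CPM in pif457, all below the WT libraries. The difference was -0.31 ± 0.11 for hy5 pif457 from WT (adjusted p = 0.0445), -0.3 ± 0.11 for hy5 pif457 from hy5 (adjusted p = 0.0397) and -0.37 ± 0.11 for pif457 from WT (adjusted p = 0.0236). Each of these calls ended when single libraries were left out. The call of hy5 pif457 against WT ended without any 1 WT 8 h library or hy5 pif457 8 h replicate 1 or 3 (-0.42 to -0.26, adjusted p up to 0.194) and without rRNA and organelle genes (adjusted p = 0.0742). That against hy5 ended without any 1 hy5 8 h library or hy5 pif457 8 h replicate 1 or 3 (-0.39 to -0.22, adjusted p up to 0.238), with no filter on low counts (adjusted p = 0.0811) and in a separate fit (adjusted p = 0.13). That of pif457 against WT ended without WT 8 h replicate 2 or 3 or pif457 8 h replicate 3 (-0.5 to -0.32, adjusted p up to 0.156) and in a separate fit (adjusted p = 0.161). RLE scaling also ended the calls of hy5 pif457 against WT (adjusted p = 0.0543) and against hy5 (adjusted p = 0.0538), and the root marker score as a covariate ended those against WT of hy5 pif457 (-0.26, adjusted p = 0.092) and pif457 (-0.3, adjusted p = 0.325).

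The CRY2 response at 8 h was lower in pif457 than in WT, with a difference of -0.55 ± 0.15 (adjusted p = 0.0458). It ended without WT 0 h replicate 1 or 3, WT 8 h replicate 2 or 3, pif457 0 h replicate 1 or 2, or pif457 8 h replicate 2 or 3 (-0.67 to -0.49, adjusted p up to 0.15). It also ended without rRNA and organelle genes (adjusted p = 0.0569), with no filter on low counts (adjusted p = 0.0503), with the replicate number as a block (adjusted p = 0.0524), in a separate fit (adjusted p = 0.233) and with the root marker score as a covariate (-0.45, adjusted p = 0.343). For hy5 pif457 the difference was -0.34 ± 0.15 (adjusted p = 0.128) and for hy5 -0.12 ± 0.15 (adjusted p = 0.725).

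**Figure D4:**
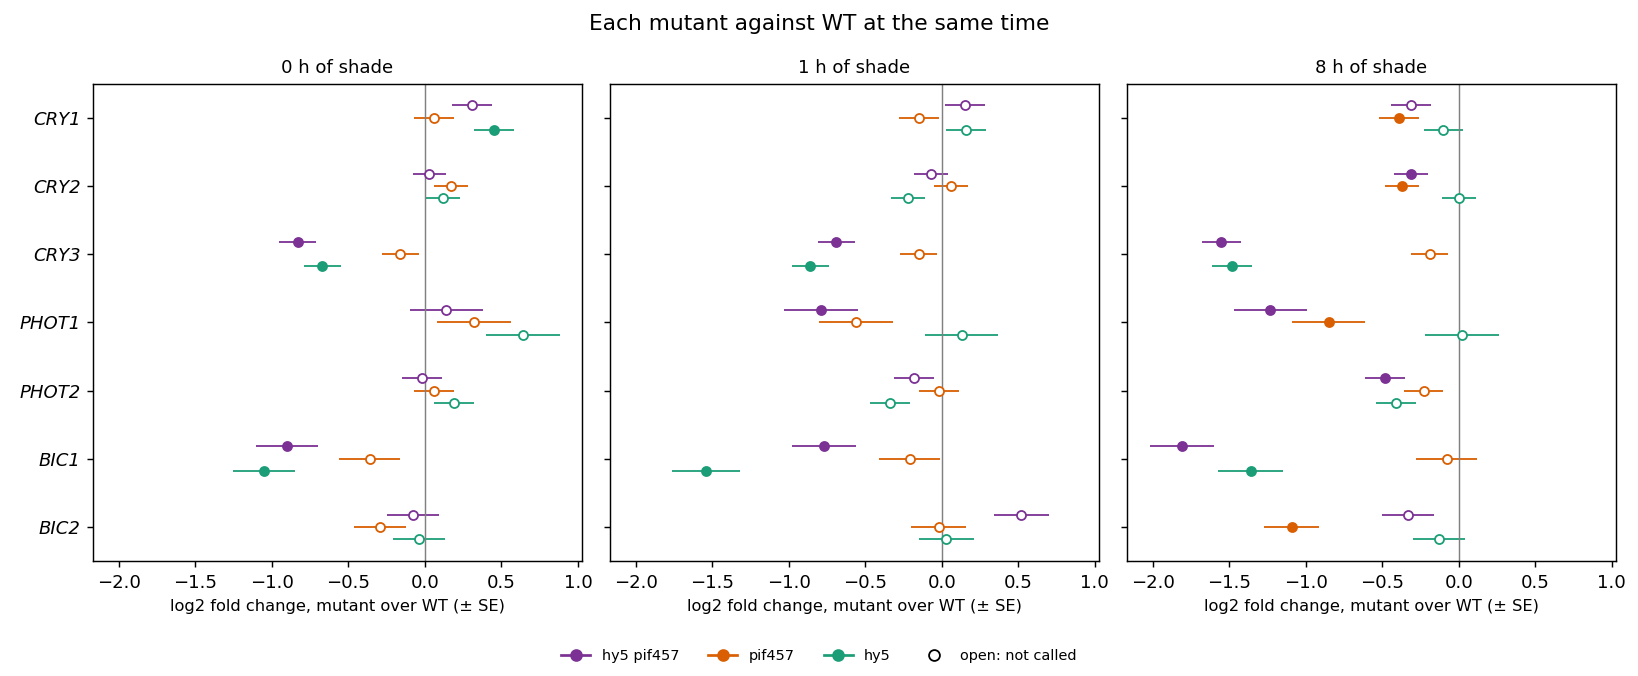
Log2 fold change of each gene in hy5 pif457, pif457 and hy5 over WT at 0, 1 and 8 h, with standard errors and with filled points where the gene was called. CRY3 and BIC1 lie below 0 and are called in hy5 and hy5 pif457 at all 3 times, and PHOT1 in hy5 pif457 reaches -1.23 at 8 h.

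Counted by comparison, 20 of the 21 calls against WT were lower in the mutant. These calls include those of CRY3 and BIC1 in hy5 and hy5 pif457 at all 3 times, and the mutants share the WT libraries. hy5 pif457 had 2 at 0 h, both lower, where 8.94% of all genes were called (5.87% higher and 3.07% lower). It had 3 at 1 h, all lower, where 7.57% were called (3.69% higher and 3.89% lower), and 5 at 8 h, all lower, where 18.7% were called (8.1% higher and 10.6% lower). The root marker score as a covariate added calls of higher levels in hy5 pif457, of CRY1 at 0 h (0.43, adjusted p = 0.0338) and BIC2 at 1 h (0.55, adjusted p = 0.0391). pif457 had 4 at 8 h, all lower, where 11.3% were called (6.6% higher and 4.67% lower). That background of 2431 genes, 58.6% of them higher, depended on the fit. In a separate fit 278 genes were called, 16.5% of them higher, and with the root marker score as a covariate 542, 23.1% of them higher. At 0 h and at 1 h pif457 had 0 calls with edgeR on all libraries and with DESeq2. At an unadjusted p under 0.05 it had 0 and 1 of the 7 genes, against 1383 and 2766 of all 21562. A separate fit called PHOT1 lower in pif457 at 1 h (-0.55, adjusted p = 0.0142). Of all genes 0.0835% were called in pif457 at 0 h (0.0186% higher and 0.0649% lower) and 2.57% at 1 h (0.334% higher and 2.24% lower). hy5 had 3 at 0 h, 1 higher and 2 lower, where 9.49% were called (6.35% higher and 3.14% lower). It had 2 at 1 h, both lower, where 4.27% were called (2.27% higher and 2% lower), and 2 at 8 h, both lower, where 2.61% were called (1.36% higher and 1.24% lower). At 8 h the 562 genes called in hy5, 52.3% of them higher, became 124 in a separate fit, 37.9% of them higher, and 248 with the root covariate, 24.6% of them higher. At 0 h the 2047 genes, 66.9% of them higher, became 261 in a separate fit, 46.4% of them higher.

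Against hy5, hy5 pif457 had 0 calls at 0 h with edgeR and with DESeq2, where 0.677% of all genes were called (0.339% in each direction). At an unadjusted p under 0.05 there was 1 of the 7 genes and 2438 of all 21562. hy5 pif457 had 2 calls at 1 h, 1 in each direction, where 3.8% were called (1.37% higher and 2.43% lower). It had 2 at 8 h, both lower, where 23.7% were called (11.5% higher and 12.1% lower). A separate fit also called BIC2 higher than in hy5 at 1 h (0.5, adjusted p = 0.0322). Against pif457, hy5 pif457 had 1 call at 0 h, lower, where 6.85% were called (4.6% higher and 2.25% lower). It had 1 at 1 h, lower, where 8.04% were called (5.2% higher and 2.83% lower). It had 3 at 8 h, 1 higher and 2 lower, where 26.5% were called (11.3% higher and 15.1% lower). A separate fit against pif457 at 1 h also called CRY1 (0.27, adjusted p = 0.0339) and BIC2 (0.52, adjusted p = 0.0356) higher. The same fit called BIC1 lower (-0.58, adjusted p = 0.0191).

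Between 1 and 8 h all calls of the fit on all libraries were upward. There were 0 in hy5 pif457 with that fit and with DESeq2, where 3.66% of all genes were called (2.09% higher and 1.57% lower). At an unadjusted p under 0.05 there was 1 of the 7 genes, lower, and 4864 of all 21562. A separate fit called CRY3 lower there (-0.29, adjusted p = 0.0362). There were 2 calls in pif457 (2.51% called, 1.95% higher and 0.561% lower), 3 in hy5 (7.17% called, 4.18% higher and 2.99% lower) and 4 in WT (8.16% called, 4.46% higher and 3.7% lower). The differences between a mutant response and that of WT gave 0 calls at 1 h in all 3 mutants with edgeR and with DESeq2. At an unadjusted p under 0.05 there were 2 of the 7 genes in hy5 pif457, 1 in pif457 and 2 in hy5. Of all 21562 genes 1951, 955 and 2409 were under it in the same order. Of all genes 0.969% were called in hy5 pif457 (0.0974% higher and 0.872% lower), 0.872% in pif457 (0.0278% higher and 0.844% lower) and 0% in hy5. At 8 h there were 4 in hy5 pif457 (13.7% of all genes called, 4.74% higher and 8.94% lower), 1 in pif457 (2.92%, 1.3% higher and 1.62% lower) and 1 in hy5 (1.53%, 0.441% higher and 1.09% lower), all lower than in WT. The median response difference of the 7 genes at 8 h was -0.62 in hy5 pif457, -0.44 in pif457 and -0.55 in hy5, where that of all genes was -0.05, 0 and -0.01.

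Partners of these receptors were counted from lists of 18 cryptochrome genes (17 tested), 23 phototropin genes and 7 other genes of blue light perception and repair. The 7 others were ZTL, FKF1, LKP2, their partner GI, PLP, and the photolyases UVR2 and UVR3. In WT at 8 h 10 of 17, 10 of 23 and 4 of 7 rose and 0 fell with edgeR or DESeq2 (1 phototropin gene was lower at an unadjusted p under 0.05), with medians of 0.27, 0.23 and 0.24 against -0.03 over all genes. Of all genes 19.2% were called there, 12% higher and 7.11% lower. The 22 root markers had 1 call, lower, and a median of -1.07. CIB1, a bHLH partner of CRY2, rose to 35.5 CPM at 8 h, against 11.4 CPM at 0 h (1.64 ± 0.15, adjusted p = 1.34e-08). HBI1, a growth-promoting bHLH factor, rose by 0.88 ± 0.19 (adjusted p = 0.00151) and PPK4, a kinase that phosphorylates CRY2, by 0.34 ± 0.07 (adjusted p = 0.00124). Among the phototropin genes PKS4, a substrate of phytochrome kinase activity that modulates phototropism, had 23 CPM at 8 h and 1.67 CPM at 0 h (3.79 ± 0.26, adjusted p = 3.46e-11). NPH3, the scaffold needed for phototropism, rose by 0.96 ± 0.09 (adjusted p = 1.75e-08) and ABCB19, an auxin exporter phosphorylated by PHOT1, by 1.25 ± 0.12 (adjusted p = 2.46e-08). GI, a partner of the receptors ZTL and FKF1, rose by 1.98 ± 0.22 (adjusted p = 3.43e-07). UVR2, the photolyase of pyrimidine dimers, rose by 0.47 ± 0.12 (adjusted p = 0.00711; 0.0557 without WT 8 h replicate 1) and ZTL by 0.23 ± 0.06 (adjusted p = 0.011; 0.0941 without WT 8 h replicate 3).

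At 1 h in WT 2 of 17 cryptochrome genes rose, 6 of 23 phototropin genes rose and 1 fell, and 0 of the 7 others was called with edgeR (2 at an unadjusted p under 0.05, 1 with DESeq2), with medians of 0.07, 0.18 and -0.07 against 0.02 over all genes. Of all genes 5.2% were called, 3.56% higher and 1.64% lower, and 4513 of 21562 had an unadjusted p under 0.05. The root markers had a median of 0.69. PKS4 (2.09 ± 0.25, adjusted p = 1.12e-06) and ABCB19 (0.83 ± 0.12, adjusted p = 2.46e-05) rose, and PKS1, of the same family as PKS4, fell (-0.8 ± 0.15, adjusted p = 0.000673). HBI1 rose by 0.79 ± 0.19 (adjusted p = 0.0102), which ended without WT 0 h replicate 1 or 3 or WT 1 h replicate 1 or 3 (0.69 to 0.89, adjusted p up to 0.0815). PPK4 rose by 0.27 ± 0.07 (adjusted p = 0.0216), which ended without WT 0 h replicate 1 or 3 or any 1 WT 1 h library (0.22 to 0.34, adjusted p up to 0.17). Separate fits ended the calls of PPK4, ABCB19 and PKS1, and that of PPK4 also ended with no filter on low counts and without the 12 libraries rich in rRNA.

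In hy5 pif457 at 8 h 8 of 17 cryptochrome genes and 11 of 23 phototropin genes were lower than in WT and 0 higher with edgeR or DESeq2 (1 cryptochrome gene was higher at an unadjusted p under 0.05), with medians of -0.22 and -0.31 against 0.02 over all genes. Of all genes 18.7% were called, 8.1% higher and 10.6% lower. The 22 root markers had 1 call, higher, and a median of 0.66. The lower cryptochrome genes included SPA1 (-0.76 ± 0.15, adjusted p = 0.000809), SPA4 (-0.66 ± 0.13, adjusted p = 0.00112) and COP1 (-0.44 ± 0.09, adjusted p = 0.00183), parts of a ubiquitin ligase that active cryptochromes inhibit. NPH3 (-0.73 ± 0.09, adjusted p = 2.56e-06), ABCB19 (-0.77 ± 0.12, adjusted p = 6.23e-05) and PKS4 (-1.18 ± 0.23, adjusted p = 0.000671) were lower too. Of the 7 others 2 were lower and 1 higher. UVR2 had 4.63 CPM in hy5 pif457 and 11.8 CPM in WT (-1.34 ± 0.12, adjusted p = 2.04e-08), and ZTL was at -0.25 ± 0.06 (adjusted p = 0.00788; 0.0654 without WT 8 h replicate 3). FKF1, a receptor of the ZTL family that acts in flowering, was higher at 1.02 ± 0.27 (adjusted p = 0.0102; 0.0581 without WT 8 h replicate 1).

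For pif457 at 8 h 4 of 17, 7 of 23 and 1 of 7 were lower than in WT and 0 higher with edgeR or DESeq2 (1 cryptochrome gene was higher at an unadjusted p under 0.05), with medians of -0.2, -0.23 and -0.18 against 0.02. Of all genes 11.3% were called, 6.6% higher and 4.67% lower. The 22 root markers had 11 calls, all higher, and a median of 2.26. NPH3 (-0.72 ± 0.09, adjusted p = 3.8e-06), PKS4 (-1.33 ± 0.23, adjusted p = 0.000252) and CBC1, a kinase of stomatal opening (-0.83 ± 0.14, adjusted p = 0.000147), held their calls with any 1 library left out. HBI1 (-0.79 ± 0.19, adjusted p = 0.00794) ended without WT 8 h replicate 2 or pif457 8 h replicate 3 (-1.07 to -0.51, adjusted p up to 0.064). ZTL (-0.26 ± 0.06, adjusted p = 0.0101) ended without pif457 8 h replicate 3 (adjusted p = 0.0504). SPA2 (-0.23 ± 0.07, adjusted p = 0.0389) ended without WT 8 h replicate 2 or 3 or pif457 8 h replicate 3 (-0.32 to -0.16, adjusted p up to 0.29). The call of SPA3 (-0.3 ± 0.1, adjusted p = 0.0419) ended without any 1 WT 8 h library or pif457 8 h replicate 2 or 3 (-0.46 to -0.21, adjusted p up to 0.298). The root marker score as covariate ended the calls of HBI1, SPA2, SPA3 and ZTL, as did separate fits. That of SPA3 also ended with the replicate number as a block and without rRNA and organelle genes.

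In hy5 at 8 h 2 of 17, 0 of 23 and 1 of 7 were lower than in WT and 0 higher with edgeR, with medians of -0.06, -0.11 and -0.06 against 0.01 over all genes. Of all genes 2.61% were called, 1.36% higher and 1.24% lower. The 22 root markers had 5 calls, all higher, and a median of 1.51. At an unadjusted p under 0.05, 5 phototropin genes were lower and 1 of the 7 others higher, and DESeq2 called 1 of each. Of all 21562 genes 4149 had an unadjusted p under 0.05, in either direction. UVR2 had 4.42 CPM in hy5 and 11.8 CPM in WT (-1.41 ± 0.12, adjusted p = 9.51e-09), which held with any 1 library left out. SPA3 was at -0.45 ± 0.1 (adjusted p = 0.00899; 0.0711 without WT 8 h replicate 2) and SPA4 at -0.49 ± 0.13 (adjusted p = 0.0406), which ended without any 1 WT 8 h library or hy5 8 h replicate 1 or 3 (-0.65 to -0.43, adjusted p up to 0.178). Both calls ended with the root marker score as a covariate and in a separate fit, and that of SPA4 also with the replicate number as a block and without rRNA and organelle genes.

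At 0 h 4 of 17 and 5 of 23 were higher in hy5 than in WT, and of the 7 others 2 were higher and 2 lower, with medians of 0.11, 0.2 and 0.06 against 0.03 over all genes. Of all genes 9.49% were called, 6.35% higher and 3.14% lower. The 22 root markers had 1 call, lower, and a median of 0.29. PKS4 (2.19 ± 0.25, adjusted p = 1.5e-06) and ABCB19 (0.61 ± 0.12, adjusted p = 0.00185) were higher and UVR2 lower (-0.61 ± 0.12, adjusted p = 0.0021). Also higher were HBI1 (0.79 ± 0.19, adjusted p = 0.00874), LRB2, a part of a ubiquitin ligase that acts on CRY2 (0.3 ± 0.08, adjusted p = 0.0136), and SPA1 (0.49 ± 0.15, adjusted p = 0.0356). The same held for KAC2, a kinesin-like protein of chloroplast movement (0.32 ± 0.08, adjusted p = 0.00842), GI (0.78 ± 0.22, adjusted p = 0.0255) and PLP, a protein with a light-sensing domain (0.6 ± 0.19, adjusted p = 0.0399). Each of these 6 calls ended without WT 0 h replicate 1, and all of them but that of KAC2 also without WT 0 h replicate 3 and hy5 0 h replicate 2, with the adjusted p at most 0.18. Leaving out hy5 0 h replicate 1 ended those of LRB2, SPA1, GI and PLP as well, and leaving out hy5 0 h replicate 3 that of SPA1. Of the calls named at 0 h, only that of PKS4 held in a separate fit. Those of LRB2, SPA1, GI and PLP also ended without the 12 libraries rich in rRNA. No filter on low counts ended those of SPA1 and PLP, as did leaving out rRNA and organelle genes, and RLE scaling ended that of SPA1.

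Each receptor or inhibitor had other genes with a like course over the 12 group means, among 9010 genes with a symbol and a mean log2 CPM of at least 2. Since the 12 means share the same genotypes and times, the correlations are descriptions. For CRY3 the highest Pearson r was with UGT84A2 (0.984), DDB2 (0.976) and HY5 (0.966). HY5 is the gene mutated in hy5 and hy5 pif457, where CRY3 was also lower than in WT, so its r with CRY3 in part repeats the genotype comparison. For PHOT1 the highest r was with LRX5 (0.971), ARF2 (0.968) and SUB1 (0.966). For BIC1 it was with PUT4 (0.941), PAO5 (0.919) and DTX40 (0.916), and for BIC2 with CYP71A21 (0.913), ERF010 (0.91) and ATL52 (0.895). CRY1 was nearest to AT-GTL1 (0.958), LPEAT2 (0.947) and MPK15 (0.926), CRY2 to BGAL10 (0.953), ERD4 (0.941) and GPDHC1 (0.938), and PHOT2 to TRM4 (0.956), COP1 (0.914) and AATP1 (0.91). Among the 7 genes themselves the highest r was 0.85, between CRY3 and BIC1, the 2 BIC genes had 0.41, CRY1 and CRY2 0.33, and PHOT1 and PHOT2 0.31.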

How the data were processed

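The deposited table holds expected counts per gene for 36 libraries, all whole numbers. Per the submitters' processing notes the tools were STAR 2.5.3a and RSEM 1.3.0 on TAIR10; per the labels the libraries were stranded mRNA. Neither the strand setting nor the annotation release is given in these sources. Genes were taken by identifier, and transcript lengths and overlaps from TAIR10.1, so no coordinates are given. No replicate was a copy of another (chi-square over degrees of freedom at least 4.03).

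Counts were tested with the edgeR (4.0.16, R 4.3.3) quasi-likelihood F-test, 2-sided, with TMM scaling, filterByExpr (minimum count 10, total 15) and 12 group terms, in 33 comparisons, after a check on simulated data. A standard error is the fold change divided by the root of F. Alternatives were RLE scaling, DESeq2 (1.42.0), no filter, only the groups compared, a replicate block, a root marker covariate, leaving out 289 rRNA and organelle genes, 12 rRNA-rich libraries or each library in turn, and, added after the data were seen, the block in fits of only the groups compared.

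Same-numbered libraries deviated together (all 3 correlations over 0.1) in 4 of 27 pairs of groups, hy5 and pif457 at 1 h against 0 h and hy5 and hy5 pif457 against WT at 1 h. The 7 genes and the gene lists were chosen with earlier results of these data known. List genes are named by the smallest adjusted p, up to 3 a list and comparison, and like genes by the 3 highest correlations. The lists were written from general knowledge. Figures used matplotlib 3.10.9, numpy 2.4.6 and pandas 2.3.3 in Python 3.11.15.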

Additional observations from a re-analysis of the deposited data

Results flagged for a closer look

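At 8 h of shade the response was compared between each of the 3 mutants and WT for the 7 genes, 21 differences in all. By a test of the difference itself (edgeR, adjusted p under 0.05) 6 were called, 4 in hy5 pif457, 1 in pif457 and 1 in hy5, all lower in the mutant. Of all genes 13.7% were called in hy5 pif457, 2.92% in pif457 and 1.53% in hy5. In hy5 pif457 the response differed from that of WT by -0.62 ± 0.18 for CRY1 (adjusted p = 0.0223), where the responses were -0.17 in hy5 pif457 and 0.45 in WT. For CRY3 the difference was -0.72 ± 0.18 (adjusted p = 0.0089), with -0.33 in hy5 pif457 and 0.39 in WT. For PHOT1 it was -1.37 ± 0.34 (adjusted p = 0.00962), with 0.25 in hy5 pif457 and 1.62 in WT, and for BIC1 -0.91 ± 0.29 (adjusted p = 0.0379), with -1.15 in hy5 pif457 and -0.24 in WT. In pif457 the CRY2 response differed by -0.55 ± 0.15 (adjusted p = 0.0458), with -0.01 in pif457 and 0.54 in WT. In hy5 the CRY3 response differed by -0.81 ± 0.17 (adjusted p = 0.0172), with -0.42 in hy5 and 0.39 in WT. All 6 calls share the WT libraries at 0 and 8 h. Only that of CRY3 in hy5 pif457 held in all 12 fits with 1 library left out. Of those 12 fits, 10 ended the call of BIC1, 8 that of CRY1 and 8 that of CRY2. The call of CRY3 in hy5 ended in 3 and that of PHOT1 in 1. All libraries of pif457 at 8 h and of hy5 pif457 were rich in rRNA, which cannot be told apart from those groups. The hy5 and WT libraries were not, but the CRY3 call in hy5 ended without the 12 rich libraries (adjusted p = 0.0571) and in a separate fit (adjusted p = 0.114).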

How the results depend on the processing

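Of the 66 calls, 33 held with each single library left out, and no value changed sign in any alternative run. Shade against 0 h gave 21 calls of 56, and 13 in fits of only the groups compared. Response differences gave 6 of 42, and 3 with no filter on low counts; without the 12 libraries rich in rRNA they gave 0, where 1 was called over the same comparisons. hy5 pif457 against hy5 or pif457 has no value without these libraries. Leaving out 1 library gave 17 to 23 calls for shade against 0 h, 7 to 10 (9 in all) for 8 h against 1 h, 15 to 22 (21) for mutants against WT, 6 to 10 (9) for hy5 pif457 against hy5 or pif457 and 2 to 9 (6) for response differences. Calls kept were 63 with RLE scaling, 66 with DESeq2 (6 gained), 60 with no filter, 42 with only the groups compared (7 gained), 57 with the root covariate (8 gained), 62 without rRNA and organelle genes and 26 of 32 without the 12 libraries. The replicate block in the fit of all libraries kept 63, with adjusted p of 0.0543 for PHOT1 in hy5 pif457 against WT at 1 h, 0.0565 for BIC1 in hy5 pif457 against hy5 at 1 h and 0.0524 for the CRY2 response difference of pif457 at 8 h. In the 4 comparisons where same-numbered libraries deviated together, the block in fits of only the groups compared kept 7 of 9 calls. The labels give replicate numbers and do not say whether equal numbers mark paired samples.

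The BIC to CRY log2 ratio minus that of WT at 0 h ranged, with 1 library left out, from -0.64 to -0.38 in hy5 pif457 at 0 h, from -1.59 to -1.32 at 1 h and from -1.53 to -1.21 at 8 h. It ranged from -0.54 to -0.28 in pif457 at 0 h, from -1.67 to -1.41 at 1 h, and from -1.05 to -0.79 in WT at 8 h. Fits of only the groups compared called fewer of all genes by over 1.5 times in 16 of the 33 comparisons and more in 5. Called genes of all 21562 split differently under other scalings. The share of called genes that were higher was 34.6% for the response difference of hy5 pif457 at 8 h, 48% with RLE scaling or DESeq2 and 55.5% without rRNA and organelle genes. For hy5 pif457 at 8 h it was 43.3% against 0 h, 55% with RLE scaling and 57.4% without those genes, and 57.1% against 1 h, with 69.7% and 72.1%. With DESeq2 it was 53.6% for WT at 1 h, where edgeR gave 68.4%, and without rRNA and organelle genes 55.2% for hy5 against WT at 0 h (66.9%) and 53.3% for hy5 pif457 against WT at 0 h (65.6%). The medians of all genes stayed within 0.05 of 0 with TMM scaling.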
